A study of Danio rerio with 12 samples.

Results

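The comparison described here asks what changes in the transcriptome of zebrafish larvae when panx1b is lost and panx1a is already absent. It set 3 libraries of the double knock-out line, which lacks both genes, against 3 libraries of the panx1a knock-out line (panx1a-/-), 6 of the 12 libraries in the series. All larvae were collected whole at 6 days post-fertilization (dpf), in light and with no treatment, and each library was made from total RNA of its own pool of larvae. The other 6 libraries, 3 of the wild-type Tupfel long fin strain (TL) and 3 of the panx1b knock-out line (panx1b-/-), were used only to set the effect of panx1b loss with panx1a present beside it. The double knock-out and panx1a-/- lines both lack panx1a and differ in panx1b. The knock-outs were made with TALENs, the panx1b-/- line goes back to 1 founder and was crossed back to TL, and each genotype is 1 line, so panx1b loss and anything else that differs between the 2 lines cannot be told apart. The founder of the double knock-out line and the clock time at which each line was collected are not given in the sources used here.

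Pannexin 1 forms large-pore channels in the plasma membrane that pass ions and small molecules, among them ATP, which then acts on purinergic receptors of neighbouring cells. Zebrafish carry the ohnologs panx1a and panx1b, which arose in the genome duplication of teleost fish. In the zebrafish eye, Panx1a has been placed at horizontal cell dendrites and Panx1b in the inner retina and ganglion cells. Pannexins are unrelated in sequence to the connexins of vertebrate gap junctions.

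The deposited tables held counts of reads for 31261 gene identifiers, and 24966 genes with at least 1 count in each of the 6 libraries were tested. Totals ran from 20726397 to 25893206 counts in the panx1a-/- libraries and from 21129825 to 22813707 in the double knock-outs. Levels are given as CPM, the counts scaled to the same TMM-adjusted library total, in the order of pools 1, 2 and 3, and differences as log2 fold changes, with panx1a-/- as the reference. A gene was counted as changed when its adjusted p-value was under 0.05 and its p-value under 0.001 in edgeR's quasi-likelihood test. The first principal component (58.7% of the variance) separated the lines and the second (16.7%) set panx1a-/- pool 2 and double knock-out pool 1 apart from their own lines. In panx1a-/- pool 2 the median of 48 liver genes lay 0.47 log2 units below the mean of its line, and in double knock-out pool 1 the median of the neuronal genes lay 0.25 log2 units below the mean of its line. The part of these libraries in the results was not tested, and the counts that move without them are given beside each group.

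Of the pannexin genes, 1 of 4 fell. The annotation gives both ohnologs of pannexin 1 the name PANX1 and does not say which identifier is panx1a and which panx1b. PANX1 ENSDARG00000014910 had 7.54, 8.86 and 8.29 CPM in panx1a-/- and 3.66, 3.87 and 4.77 CPM in the double knock-outs, a log2 fold change of -1.01 (SE 0.15, adjusted p = 0.000959). All 3 double knock-out libraries lay below all 3 panx1a-/- libraries. On the scale of all 12 libraries the same gene had 6.94, 5.76 and 4.69 CPM in TL and 5.84, 6.24 and 7.12 CPM in panx1b-/-. On that scale every panx1a-/- library lay above every TL and every panx1b-/- library. The double knock-out libraries lay below all those of panx1b-/- but overlapped TL. Thus the log2 fold change of -1.01 was taken against a line that itself lay above TL. The line that lacks panx1b alone was not below TL. PANX1 ENSDARG00000025285 was at 3.87 to 4.82 CPM in panx1a-/- and 4.101 to 4.37 CPM in the double knock-outs (log2 fold change -0.01, SE 0.16, adjusted p = 0.975). It was at 11.7 to 14.4 CPM in TL and 9.12 to 9.85 CPM in panx1b-/-, so both lines that lack panx1a had less of it than either line that has it. A small deletion can leave a transcript that is still counted, so neither level checks whether protein was made. PANX2 and PANX3 had log2 fold changes of -0.20 (SE 0.22) and -0.28 (SE 0.36).

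Between the lines 938 genes were lower and 645 higher in the double knock-outs, 3.76% and 2.58% of the genes tested (6.34% together). Every count of a gene list below is to be set beside these shares. The median log2 fold change was -0.77 among the lower and 0.70 among the higher genes, and 0.00 over all genes tested. A change of more than 2-fold was found for 313 of the lower and 192 of the higher genes. Of the 1583 changed genes, 1580 had no overlap between the 3 and 3 libraries, which was also true of 30.9% of all genes tested. Both counts dropped when double knock-out pool 2 or pool 3 was left out, to 578 and 499 lower and to 407 and 381 higher genes. Without panx1a-/- pool 3 the count of higher genes was 427. Double knock-out pools 2 and 3 were more alike than any other 2 pools of the same line. Their counts differed by a chi-square per degree of freedom of 2.93, beside 10.7 to 18.7 for the other pairs. The reason was not tested, and the p-values rest in part on this small spread.

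The genes singled out by size below carry a name, averaged at least 1 CPM and did not overlap between the lines. The decreases are given first. The mucin gene mucms1 had 6.69, 4.16 and 9.08 CPM in panx1a-/- and 0.0463, 0.140 and 0.0446 CPM in the double knock-outs, where it was seen in 1 to 3 reads per library. Its ratio of panx1a-/- to double knock-out was 86.9 (95% exact interval 37.0 to 269, counting error only). HEPH, whose mammalian counterpart hephaestin oxidises iron as it leaves intestinal cells, had 48.8, 44.9 and 41.0 CPM in panx1a-/- and 1.67, 1.26 and 0.847 CPM in the double knock-outs. Its log2 fold change was -5.16 (SE 0.17, adjusted p = 9.7e-09), the smallest p-value of the comparison. The hatching enzyme gene he1.1 went from 1.27, 3.41 and 2.00 CPM to 0.0927, 0.0932 and 0.0446 CPM, or 165 reads against 5 (ratio 29.9, 95% exact interval 12.6 to 93.4). It has close copies in the genome, and reads may have been shared among them.

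Further decreases past 4-fold were found in the protocadherin gene pcdh1gb9 (log2 fold change -4.23, SE 0.27), the alcohol dehydrogenase gene adh5l (-3.61, SE 0.28), GGACT (-3.06, SE 0.35), MSH4, whose product acts in meiotic recombination (-2.89, SE 0.21), and SPR (-2.85, SE 0.44), named for sepiapterin reductase. The actin-severing protein gene GSN ENSDARG00000045262 had 36.7, 30.5 and 32.8 CPM in panx1a-/- and 6.30, 4.24 and 3.52 CPM in the double knock-outs (log2 fold change -2.83, SE 0.17). The protease inhibitor gene serpinb14 fell from 33.6, 39.9 and 35.5 CPM to 5.75, 4.57 and 5.04 CPM (log2 fold change -2.83, SE 0.12, adjusted p = 7.06e-08). That the lines did not overlap in GSN or serpinb14 comes from the choice of genes. The remaining genes of the 15 largest decreases were tapbp.2 of antigen presentation (-2.76, SE 0.33), RIBC1 (-2.64, SE 0.32), PLEK2 (-2.59, SE 0.27), the sulfotransferase sult3st4 (-2.53, SE 0.27) and the glycosyltransferase B3GNT3 ENSDARG00000093521 (-2.34, SE 0.26). Among the smallest p-values were also the small heat shock protein gene hspb6, with 12.8, 12.5 and 14.6 CPM against 2.59, 2.84 and 2.67 CPM (-2.30, SE 0.14), ccdc125 (-1.97, SE 0.13), ANO3 (-1.67, SE 0.12) and the ammonium transporter gene RHCG (-1.65, SE 0.11). RHCG, which in fish serves ammonia excretion across skin and gill, had 115, 116 and 92.5 CPM in panx1a-/- and 34.4, 37.7 and 30.7 CPM in the double knock-outs.

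The increases are given in the same way. The cerebellin gene cbln8 rose from 0.660, 0.431 and 0.786 CPM to 9.87, 6.20 and 8.69 CPM (log2 fold change 3.71, SE 0.25, adjusted p = 2.53e-06). The hepcidin gene hamp, a liver hormone that limits iron release into the blood, had 0.943, 0.314 and 1.101 CPM in panx1a-/- and 9.96, 5.31 and 7.36 CPM in the double knock-outs (3.27, SE 0.33). The lack of overlap between the lines in either gene comes from the choice of genes. The globin gene HBE1 ENSDARG00000115405 had 5.99, 7.25 and 7.78 CPM in panx1a-/- and 54.4, 45.9 and 42.3 CPM in the double knock-outs (2.76, SE 0.13, adjusted p = 1.32e-07). The complement C3 gene c3a.6 had 9.81, 6.63 and 11.05 CPM against 50.0, 58.6 and 41.9 CPM (2.45, SE 0.17). Of the remaining genes, MIOX, which starts the breakdown of inositol, had 5.94, 3.88 and 4.21 CPM against 25.9, 23.1 and 23.9 CPM (2.39, SE 0.14).

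The other genes among the 15 largest increases were a long intergenic non-coding RNA (2.73, SE 0.31), hbae1.2 (2.57, SE 0.37), nlrb5 (2.45, SE 0.35), CYTH3 (2.41, SE 0.29), c3a.4 (2.33, SE 0.35), HBE1 ENSDARG00000087390 (2.296, SE 0.12), the finTRIM genes ftr54 (2.06, SE 0.36) and ftr12 (2.01, SE 0.25), the lectin gene ITLN1 ENSDARG00000095082 (1.96, SE 0.17) and vmn2r1 (1.87, SE 0.34). Low p-values were also found for HMOX1, FADS3, PKHD1L1 and SMCHD1. HMOX1, the heme oxygenase that frees iron from heme, had 17.6, 13.4 and 16.8 CPM in panx1a-/- and 50.6, 49.0 and 53.0 CPM in the double knock-outs (1.68, SE 0.11, adjusted p = 1.43e-06). SMCHD1, a chromatin protein, had 22.1, 24.0 and 23.3 CPM against 44.9, 48.0 and 47.8 CPM (1.02, SE 0.08). The log2 fold changes of FADS3 and PKHD1L1 were 1.72 (SE 0.14) and 1.404 (SE 0.10). The globin, C3, finTRIM and NLR-like genes belong to families of close copies whose reads may be shared.

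**Figure D1:**
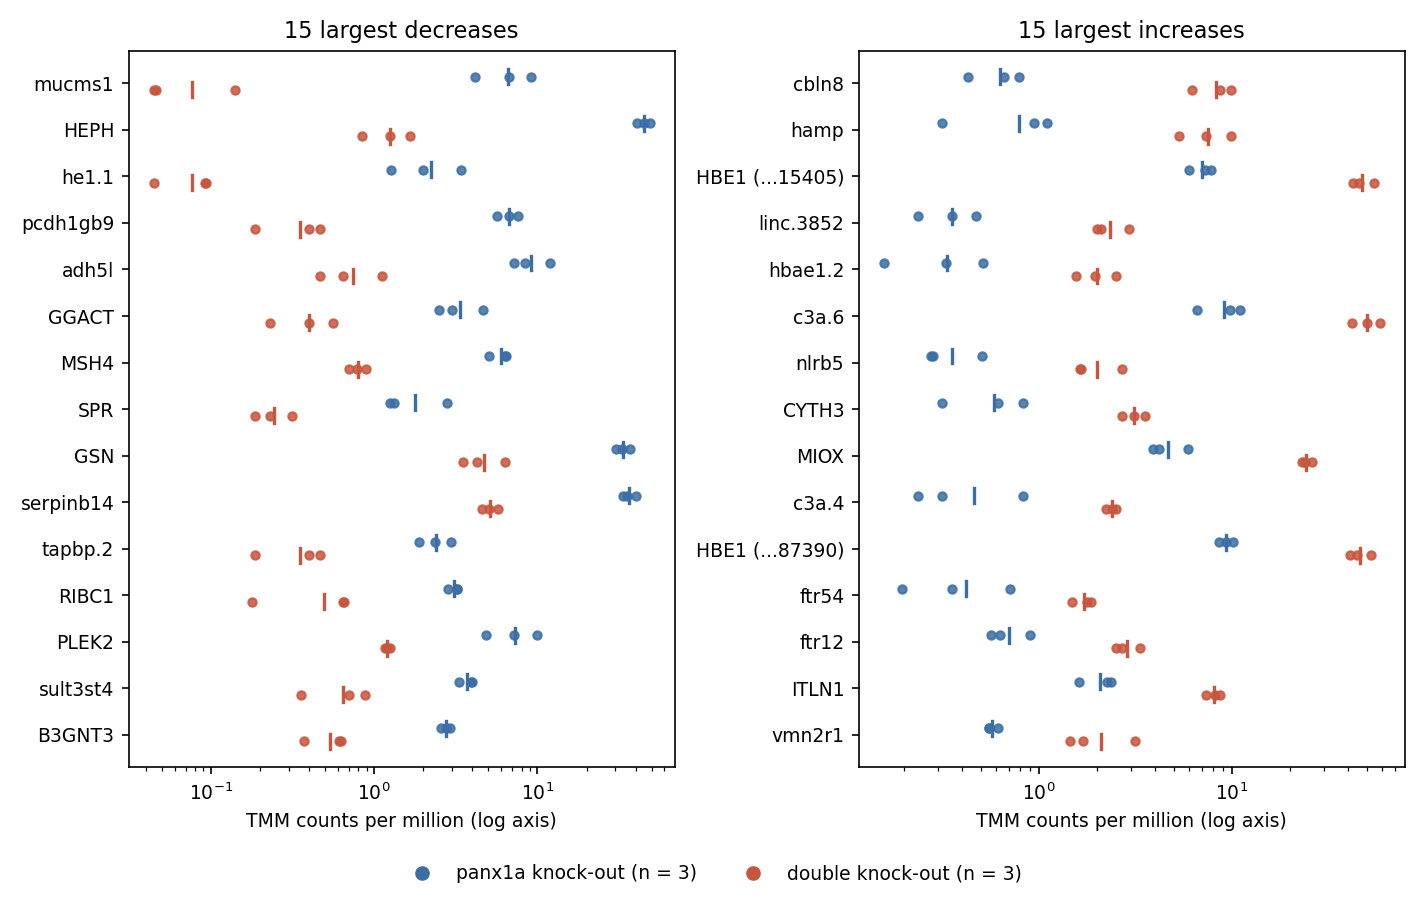
Levels of the genes with the 15 largest decreases (left) and the 15 largest increases (right) in TMM-scaled CPM on a log axis. Each point is 1 library, blue for panx1a-/- and red for the double knock-out (n = 3 each), and each bar is the mean of its line. Genes were shown only if the lines did not overlap, and HEPH lay between 41.0 and 48.8 in panx1a-/- and between 0.847 and 1.67 in the double knock-out.

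Circadian clock genes changed in both directions. In vertebrate cells, CLOCK and BMAL proteins switch on the period and cryptochrome genes, whose products then repress CLOCK and BMAL, while ROR and REV-ERB (NR1D) receptors drive and repress the BMAL genes. Zebrafish keep such a clock in most tissues, and it is set directly by light. Of 43 clock genes tested, 25 changed (58.1%, against 6.34% of all genes tested), with 10 higher and 15 lower. The changed activators rose, and most but not all of the changed repressors fell. Of 11 activators 6 rose and 0 fell (median log2 fold change 0.56), and of 24 repressors 4 rose and 11 fell (median -0.44). Of 8 output factors, which carry the rhythm to other genes, 0 rose and 4 fell (median -0.46). Leaving out any 1 library gave 5 to 7 higher activators, 11 to 12 lower repressors and 4 to 5 lower output factors.

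Among the called repressors the PER1 copies had the lowest log2 fold changes. PER1 ENSDARG00000056885 had 82.0, 93.6 and 91.3 CPM in panx1a-/- and 30.9, 25.2 and 21.5 CPM in the double knock-outs, a log2 fold change of -1.78 (SE 0.12, adjusted p = 2.31e-06). PER1 ENSDARG00000012499 had 118, 127 and 122.8 CPM against 46.4, 47.4 and 43.5 CPM (-1.42, SE 0.08, adjusted p = 8.19e-07). For both copies every double knock-out library lay far below every panx1a-/- library. PER3 fell as well (-0.61, SE 0.10), while PER2 had a log2 fold change of -0.20 (SE 0.08, adjusted p = 0.135). The cryptochrome gene CRY2 had 54.2, 60.8 and 57.7 CPM against 31.9, 28.8 and 30.6 CPM (-0.92, SE 0.09), and 1 of the CRY1 copies, ENSDARG00000011583, fell by 0.58 on the log2 scale (SE 0.10). CLOCK-BMAL1 repressors that fell with them were cipca (-0.90, SE 0.12), ciarta (-0.89, SE 0.09), BHLHE41 (-0.86, SE 0.10), ciartb (-0.70, SE 0.10), the REV-ERB gene NR1D1 (-0.66, SE 0.10) and cipcb (-0.59, SE 0.09). PER3, CRY1, ciarta, BHLHE41, ciartb, NR1D1 and cipcb, and CLOCK and bmal2 below, were named after their values were seen.

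Of the 11 activators, 6 were higher in the double knock-outs. The ROR receptor gene rorcb had 85.04, 88.2 and 81.7 CPM in panx1a-/- and 152, 153 and 164 CPM in the double knock-outs (0.88, SE 0.08, adjusted p = 3.24e-05), and rorca rose by a log2 fold change of 0.57 (SE 0.08). BMAL1 ENSDARG00000006791 had 26.9, 27.4 and 27.4 CPM against 39.9, 48.2 and 50.5 CPM (0.76, SE 0.10), and BMAL1 ENSDARG00000035732 had 25.5, 26.0 and 25.2 CPM against 40.3, 35.1 and 43.3 CPM (0.63, SE 0.09). For both copies the panx1a-/- libraries lay within 1 CPM of each other and below every double knock-out library. CLOCK ENSDARG00000011703 (0.57, SE 0.09) and bmal2 (0.55, SE 0.12) rose as well. The repressors that rose were nfil3-5, with 62.2, 56.3 and 61.5 CPM against 125, 136 and 134 CPM (1.14, SE 0.08, adjusted p = 3.94e-06), cry3b (0.99, SE 0.09), nr1d4b (0.61, SE 0.09) and cry3a (0.45, SE 0.10). NFIL3 proteins repress the D-box sites that the PAR bZIP factors activate. Of those factors, the output genes, 4 fell: dbpb from 129.9, 160.5 and 145 CPM to 72.0, 66.6 and 62.5 CPM (-1.11, SE 0.10), dbpa (-0.91, SE 0.08), tefb (-0.63, SE 0.09) and tefa (-0.58, SE 0.10).

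**Figure D2:**
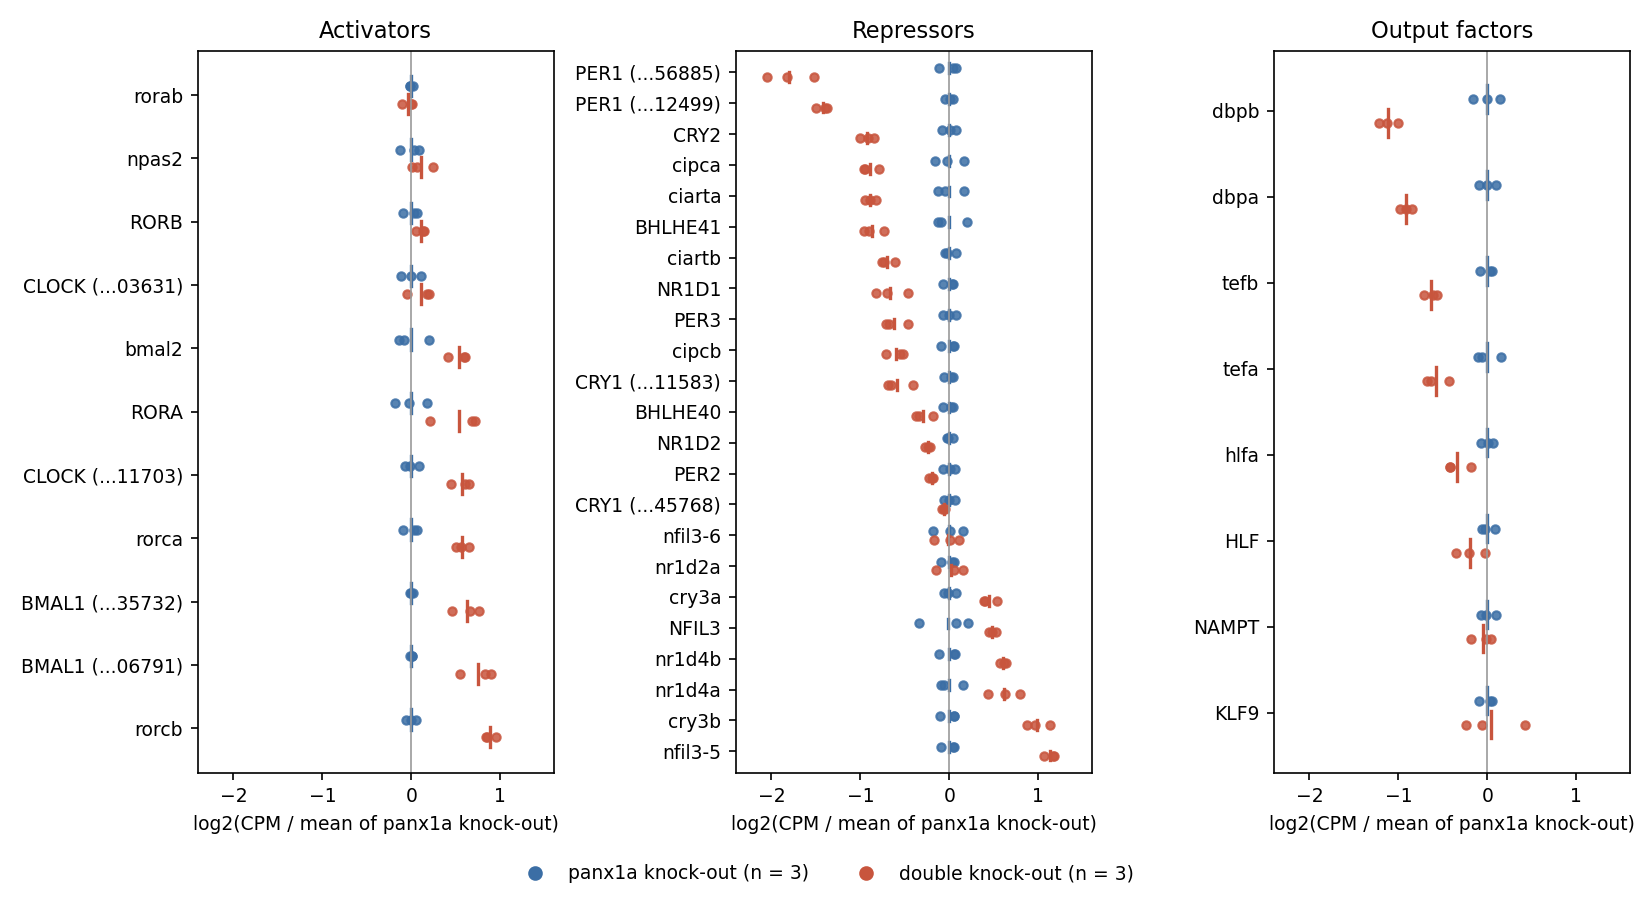
Clock genes that averaged 1 CPM or more, as log2 of each library's CPM over the panx1a-/- mean, in 3 panels for activators, repressors and output factors. Points are libraries (n = 3 per line), bars the mean of the points of a line, and the digits after a repeated name end its identifier. The double knock-out points of rorcb and the BMAL1 copies sit to the right of 0, and those of both PER1 copies sit furthest to the left, with log2 fold changes of -1.78 and -1.42.

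Most of the changed clock genes also moved the same way with panx1b loss when panx1a was present. Of the 25, 24 had the same sign in panx1b-/- against TL and 18 passed the cut-offs in that direction there. The same sign was found for 55.7% of all genes tested in both backgrounds. Among all changed genes it was found for 68.2% of the lower and 61.2% of the higher ones. Of these, 17.3% and 10.6% passed the cut-offs in the same direction. The comparison of panx1b-/- with TL shares no library with this one. PER1 ENSDARG00000056885 and dbpb had log2 fold changes of -1.62 and -1.14 there, beside -1.78 and -1.11 in the panx1a-null background. The difference between the backgrounds itself, tested as an interaction over all 12 libraries, passed the cut-offs for 4 of the 25: PER1 ENSDARG00000012499 fell further (interaction -0.64), nfil3-5 rose further (0.51), cipca fell less (1.16) and nr1d4b rose from a log2 fold change of -0.16 to 0.61 (0.77). The exception in sign was nr1d4b. A count over genes changed here leaves out clock genes that passed the cut-offs only in panx1b-/- against TL. KLF9 had a log2 fold change of -1.16 there and 0.07 here (interaction 1.24), and nr1d2a -0.88 and 0.03 (interaction 0.91). Both interactions passed the cut-offs, and KLF9 and nr1d2a were named after their values were seen. In panx1b-/- against TL, BMAL1 ENSDARG00000035732 rose (0.48) and cry5 fell (-0.84) past the cut-offs. BMAL1 ENSDARG00000006791 (0.44), npas2 (0.28) and the CRY1 copies (-0.04 and 0.02) did not pass there. For the same lines the paper reports lower bmal1a, bmal1b, clock2 (npas2), cry1 and cry5 in panx1b-/- by RT-qPCR. These genes were named because of that report. The direction here was opposite for the BMAL1 genes and npas2, of which BMAL1 ENSDARG00000035732 alone passed the cut-offs. The reason was not tested.

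The list of lens genes had no lower member past the cut-offs. It held crystallins, the soluble proteins that fill the lens, with lens fibre membrane and filament proteins. Of 63 members tested 25 rose and 0 fell, with a median log2 fold change of 0.59, and 59 were above 0. The share of all genes called higher was 2.58%. Summed over the list, the level was 6708 to 9429 CPM in panx1a-/- and 11458 to 12509 CPM in the double knock-outs, so the lines did not overlap. The gamma-crystallin gene crygm2d16 had 78.7, 113 and 96.5 CPM against 222, 202 and 198 CPM (1.11, SE 0.12, adjusted p = 0.000111), and CRYGN had 3.54, 5.65 and 4.01 CPM against 9.36, 9.74 and 9.85 CPM (1.13, SE 0.16). Log2 fold changes of 0.98 (SE 0.19) and 0.90 (SE 0.16) were found for crygm2f and crygmxl2. The gamma-crystallin M2d genes are near copies of each other, so single members are uncertain and the list total is the firmer value. The count fell to 16, 13 and 14 without double knock-out pools 1, 2 and 3 and to 11 without panx1a-/- pool 1, with medians of 0.48 to 0.68 over all libraries left out, and it was 8 in a fit of all 12 libraries.

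In whole larvae, more lens cells and more crystallin RNA per cell cannot be told apart, and the same holds for every tissue below. In panx1b-/- against TL the lens genes were not higher. Their median log2 fold change there was -0.26 over 60 tested members, with 0 higher and 2 lower. The interaction passed the cut-offs for 9 lens genes, all with a more positive effect in the panx1a-null background, among them crygm2d16 (2.07) and crygmxl2 (1.39).

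Some cone opsin genes also rose. Of 10 visual opsins tested 4 rose and 0 fell (median 0.68): the red opsin opn1lw2, the ultraviolet opsin OPN1SW, the blue opsin opn1sw2 and the green opsin opn1mw1. The level of opn1lw2 was 158, 181 and 228 CPM in panx1a-/- and 285, 437 and 365 CPM in the double knock-outs (0.94, SE 0.16, adjusted p = 0.00254). That of OPN1SW was 151, 195 and 223 CPM against 269.7, 360.3 and 335 CPM (0.76, SE 0.14). For opn1sw2 and opn1mw1 the log2 fold changes were 0.73 (SE 0.16) and 0.69 (SE 0.14). The lines did not overlap in any of the 4, though each gene was lowest in pool 1 of either line. With double knock-out pool 2 or pool 3 left out, 1 of the 4 opsins still passed.

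Of 54 phototransduction genes 4 rose and 0 fell, against 2.58% and 3.76% of all genes tested. The 4 were the guanylate cyclase activator GUCA1A (1.24, SE 0.18), the cone transducin subunits gnb3b (0.95, SE 0.14) and GNGT2 (0.81, SE 0.13) and the opsin kinase grk1b (0.67, SE 0.11). GUCA1A had 4.71, 3.88 and 4.84 CPM against 7.74, 12.3 and 11.7 CPM. The median of the list was 0.08, close to that of all genes, so the rise was that of a few members. Without double knock-out pool 1 the count was 9. Among 27 non-visual opsins OPN4 ENSDARG00000053929, a melanopsin of light-sensitive neurons (0.99, SE 0.17), OPN3 (0.67, SE 0.14) and opn6b (0.64, SE 0.12) rose and tmtops3b fell (-1.88, SE 0.40). The OPN4 copies ENSDARG00000007553 (0.46) and ENSDARG00000022098 (0.58) did not pass and were named after their values were seen. The higher count was 1 without double knock-out pool 2 or pool 3, and the lower count was 0 without double knock-out pool 1 or pool 3 or panx1a-/- pool 3. The visual cycle list had 1 higher (rlbp1a, also a Müller glia gene) and 1 lower (DHRS7C ENSDARG00000039453) of 26. Whether DHRS7C acts in the visual cycle of the larvae was not tested. Müller glia genes had 1 higher and 1 lower (SLC1A2 ENSDARG00000052138) of 14. These lower copies averaged 1.68 and 12.3 CPM. The more abundant copies, DHRS7C ENSDARG00000071877 (mean 45.8 CPM, -0.09) and SLC1A2 ENSDARG00000102453 (mean 215 CPM, 0.32), did not pass and were named after their values were seen.

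**Figure D3:**
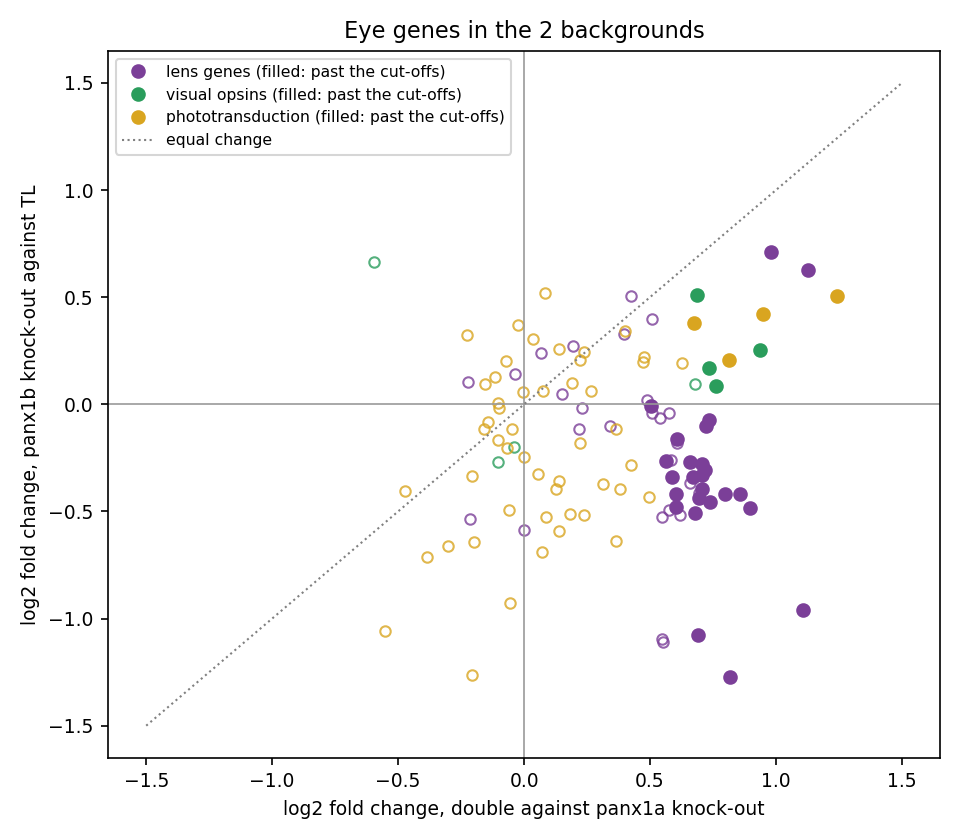
Log2 fold changes of lens genes, visual opsins and phototransduction genes that averaged 1 CPM or more, for the double knock-out against panx1a-/- (horizontal) and panx1b-/- against TL (vertical). Each point is 1 gene, filled where it passed the cut-offs on the horizontal axis, and the dotted line marks equal change. Lens genes lie to the right, with a median of 0.59, and mostly under the horizontal line, with a median of -0.26.

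Of 55 synaptic and neuronal genes 50 had a log2 fold change above 0, with a median of 0.24, while over all genes tested 50.3% were above 0. Past the cut-offs were 4 higher and 1 lower, against 2.58% and 3.76% of all genes tested. The higher ones were STMN2 of growing axons, with 19.7, 17.4 and 22.2 CPM against 27.7, 42.3 and 39.4 CPM (0.88, SE 0.15), the glutamate decarboxylases GAD2 (0.55, SE 0.12) and GAD1 ENSDARG00000027419 (0.54, SE 0.11), which make GABA, and the glutamate receptor gene GRIA1 ENSDARG00000021352 (0.53, SE 0.11). The lower one was nsfb (-0.54, SE 0.12). Double knock-out pool 1 was the lowest of its line for GAD1, with 135 CPM beside 173 and 172 CPM, and for STMN2. Without that pool 18 of the 55 were higher, and with any other library left out 1 to 2 were. Amacrine, bipolar and horizontal cell genes gave 5 higher and 0 lower of 27 (median 0.29), namely the 2 GAD genes, the ON-bipolar receptor GRM6 ENSDARG00000025671 (0.53, SE 0.12), its channel trpm1b (0.44, SE 0.08) and PROX1 ENSDARG00000055158, which lies outside the naming rule and was chosen after its value was seen (0.39, SE 0.08). Here the count was 11 without double knock-out pool 1, 0 without pool 3, 3 without panx1a-/- pool 1 and 1 without double knock-out pool 2, panx1a-/- pool 2 or panx1a-/- pool 3. Retinal ganglion cell genes (14), melatonin genes (12), dopamine and serotonin genes (22) and hypothalamic and pituitary hormone genes (36) each had 0 calls by edgeR, with 8, 1, 1 and 6 at an unadjusted p under 0.05. DESeq2 called 0 in each of these lists too. Of the 24966 genes tested, 6927 had an unadjusted p under 0.05. The share of the ganglion cell list was above that of all genes, and the shares of the other lists were below it. Of the 14 ganglion cell genes 11 had a log2 fold change above 0 and 3 below (median 0.19).

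Of 114 genes of ribosomal RNA processing 20 fell and 1 rose, against 3.76% and 2.58% of all genes tested, and the median log2 fold change was -0.25. RRS1, an assembly factor of the large subunit, had 23.7, 22.3 and 21.1 CPM in panx1a-/- and 12.5, 12.9 and 12.8 CPM in the double knock-outs (-0.81, SE 0.10, adjusted p = 0.000177). NOP58, a core protein of the particles that methylate ribosomal RNA, had 102, 89.9 and 82.3 CPM against 55.8, 53.6 and 53.7 CPM (-0.75, SE 0.09). The pseudouridine synthase DKC1 (-0.75, SE 0.10) and the methyltransferase nop2 (-0.74, SE 0.11) fell to a like degree. The gene that rose was exosc3, a subunit of the RNA exosome, from 5.47, 5.802 and 4.91 CPM to 10.7, 9.32 and 10.7 CPM (0.92, SE 0.13). The count of lower genes was 11 without double knock-out pool 2, without double knock-out pool 3 or without panx1a-/- pool 1, and 17 to 24 without any other. In panx1b-/- against TL 13 of these genes were lower and 1 higher (median -0.22), and exosc3 moved the other way there (log2 fold change -1.91, interaction 2.84). The list of ribosomal protein genes had 1 lower and 0 higher of 93 (median -0.05). The lower one was RPL7L1, named as a ribosomal-protein-like gene (-0.43, SE 0.09).

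Of 44 heat shock and protein folding genes 6 fell and 0 rose (median -0.14), against 3.76% and 2.58% of all genes tested, and 37 were below 0. The chaperonin subunit CCT4 had 267, 282 and 268 CPM against 174, 169 and 163 CPM (-0.69, SE 0.09), and the cochaperone STIP1 (-0.71, SE 0.09), hsp70l (-0.80, SE 0.19) and the collagen chaperone SERPINH1 ENSDARG00000075954 (-0.52, SE 0.11) fell as well. Without double knock-out pool 2, pool 3 or panx1a-/- pool 3 the count was 2, and without panx1a-/- pool 1 it was 4. Of 33 genes of endoplasmic reticulum stress 5 fell and 2 rose (median -0.29), beside the same shares of all genes. The lower ones named by rule were asparagine synthetase ASNS (-0.97, SE 0.18), HYOU1 (-0.94, SE 0.20), sesn2 (-0.93, SE 0.13) and dnajc3a (-0.79, SE 0.13), while the stress sensor ern1 (0.79, SE 0.09) and PDIA3 (0.42, SE 0.09) rose. Without panx1a-/- pool 2 the count of lower genes was 11, without double knock-out pool 3 it was 2, and without double knock-out pool 2, panx1a-/- pool 1 or panx1a-/- pool 3 it was 3.

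Of 43 interferon response genes 8 fell and 0 rose, against 3.76% and 2.58% of all genes tested. The median was -0.23, and the decreases were led by the antigen presentation gene tapbp.1 (-1.81, SE 0.24), the guanylate-binding protein gbp1 and beta-2-microglobulin b2m (-1.27, SE 0.22). The level of gbp1 was 8.72, 12.5 and 8.73 CPM in panx1a-/- and 3.57, 3.68 and 3.61 CPM in the double knock-outs (-1.47, SE 0.17, adjusted p = 0.000156). With a library left out the count was 5 to 8, at 5 without double knock-out pool 3 or panx1a-/- pool 1. Summed over the list the level was 571.7 to 683 CPM against 492 to 509.7 CPM, with no overlap.

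Of 54 leukocyte and inflammation genes 7 fell and 1, hamp, rose (median -0.35), against 3.76% and 2.58% of all genes tested. The metalloproteinase gene MMP9 had 114, 7.10 and 47.1 CPM in panx1a-/- and 4.87, 8.76 and 3.70 CPM in the double knock-outs. The lines overlapped and the log2 fold change of -3.27 (SE 0.70) rested on panx1a-/- pools 1 and 3. It ran from -3.80 to -2.23 with a library left out and passed the cut-offs in 2 of those 6 fits. The collagenase gene mmp13a (-1.82, SE 0.27), the chemokine gene cxcl18b (-1.44, SE 0.28) and the class II chaperone cd74a, with 2.26, 4.08 and 5.54 CPM against 1.76, 1.44 and 1.29 CPM (-1.41, SE 0.30), fell too. Without panx1a-/- pool 2, 19 of the 54 were lower, while without double knock-out pool 1 or pool 3 or panx1a-/- pool 3 the count was 3 to 4. The summed level ran from 358.5 to 688 CPM in panx1a-/- and from 345 to 367 CPM in the double knock-outs. The list mixes neutrophil, macrophage and inflammation genes, and the number of such cells was not measured.

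Families of polymorphic immune genes had members in both directions, 12 lower and 7 higher of 155 tested out of 208 listed (median -0.15). Of all genes tested 3.76% were lower and 2.58% higher. The lower ones of the list numbered 7 without panx1a-/- pool 1, near the share of all genes tested. Lower were btr21, with 55 reads against 4 (ratio 12.5, 95% exact interval 4.61 to 47.4), ftr51 (-2.31, SE 0.20), btr20 (-2.19, SE 0.33) and ftr99 (-1.99, SE 0.28). Higher were the class I genes mhc1zka, with 6 reads in panx1a-/- and 99 in the double knock-outs (ratio 18.2, 95% exact interval 8.06 to 50.7), mhc1zfa (2.41, SE 0.37) and mhc1uca (2.11, SE 0.36), with ftr54. Such genes differ between haplotypes, and how well reads of other alleles were aligned was not tested.

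Of 35 erythroid genes 5 rose and 1 fell (median 0.07), and 4 of the 5 were globins. HBE1 ENSDARG00000087390 had 8.58, 9.37 and 10.18 CPM in panx1a-/- and 52.87, 44.6 and 41.0 CPM in the double knock-outs, and hbae1.2 went from 0.330, 0.157 and 0.511 CPM to 1.95, 2.52 and 1.56 CPM. The fourth, hbae1.1, had a log2 fold change of 2.40 (SE 0.49). Other copies of HBE1 did not pass: ENSDARG00000113599, at a mean of 142 CPM in panx1a-/- and 129 CPM in the double knock-outs, had a log2 fold change of -0.14, and ENSDARG00000045143 one of 0.29. The erythroid transcription factors gata1a (-0.02) and klf1 (-0.40) and the heme synthesis gene alas2 (0.06) were not called either. These 5 genes were named after their values were seen. SLC25A37, the iron importer of mitochondria, fell (-0.62, SE 0.12). Summed over the list the level was 684.5 to 855 CPM against 806 to 939 CPM, and the lines overlapped.

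After hamp, HEPH and HMOX1 were seen among the largest changes, a list of 41 iron-handling genes was drawn up, of which 5 rose and 3 fell (median 0.00). Since the list was drawn up from these results, its count is a description only. Beside those genes, the receptor gene TFR2, which senses transferrin in the liver, had 4.20, 1.25 and 3.70 CPM against 10.3, 9.41 and 9.41 CPM (1.69, SE 0.28). The iron-uptake receptor tfr1b had 44.8, 35.9 and 42.0 CPM against 19.6, 19.9 and 21.2 CPM (-1.02, SE 0.10, adjusted p = 4.47e-05). A list of 41 complement genes, drawn up the same way, had 5 higher and 2 lower (median 0.07). In it c3b.2 had 33.5, 22.0 and 35.6 CPM against 92.7, 81.7 and 71.6 CPM (1.43, SE 0.16), MASP2 rose (1.35, SE 0.27), and the terminal components c7a (-1.23, SE 0.26) and c7b (-0.66, SE 0.13) fell. Without panx1a-/- pool 2 the complement count was 7 higher and 8 lower, and without any other library 0 to 1 lower. The liver makes much of the hepcidin and complement of the body, and of 48 liver genes 4 rose and 0 fell (median 0.29): apoa2 (0.72, SE 0.13), ahsg1 (0.66, SE 0.10), apoc2 (0.59, SE 0.12) and ambp (0.51, SE 0.12). The liver count was 5 higher and 7 lower without panx1a-/- pool 2, with a median of 0.14, and without double knock-out pool 3 it was 2 higher. The third such list, of sulfotransferases and glucuronosyltransferases, had 5 lower and 1 higher of 49, among them ugt2a6 (-2.11, SE 0.20), sult3st5 (-1.84, SE 0.25), ugt5d1 (-0.97, SE 0.23) and, higher, sult3st3 (1.05, SE 0.15).

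In metabolism, hormone response and the oxygen pathway single genes moved. Of 25 hypoxia genes 3 fell: EPAS1 ENSDARG00000008697, with 284, 267 and 268 CPM against 160.2, 131 and 138 CPM (-0.93, SE 0.10, adjusted p = 8.62e-05), hif1al, with 169, 167 and 179 CPM against 101, 94.3 and 88.2 CPM (-0.86, SE 0.09), and the glucose transporter SLC2A1 ENSDARG00000007412 (-0.74, SE 0.11). No member rose, and the median of the list was -0.11. EPAS1 and hif1al encode oxygen-regulated transcription factor subunits, and SLC2A1 is a known target of such factors. Other targets on the list did not pass, such as LDHA (0.08), PDK1 (-0.01) and the VEGFA copies (-0.20 and -0.15). Neither did the second copies EPAS1 ENSDARG00000057671 (-0.34) and SLC2A1 ENSDARG00000001437 (0.07). These genes that did not pass were named after their values were seen. Of 21 glucocorticoid genes 4 fell and 0 rose (median -0.14). That list holds steroid synthesis genes and the receptor NR3C1 beside target genes, so its count and median are not those of targets alone. The lower ones were the PER1 copies, also counted as clock genes, FKBP5, at 143, 112 and 129 CPM against 69.9, 79.8 and 47.4 CPM (-0.96, SE 0.16), and PFKFB4 (-0.76, SE 0.10). Called or not, 12 members lay below 0 and 9 above. Among those above were CEBPD (0.35), tsc22d3 (0.21) and KLF9 (0.07), which did not pass and were named after their values were seen. Of 36 genes of cholesterol and fatty acid synthesis 4 fell and 0 rose (median -0.08): ldlrb (-0.79, SE 0.11), ACACA (-0.47, SE 0.10), FASN (-0.45, SE 0.08) and ACACB (-0.38, SE 0.09). The cholesterol list had 7 lower genes without panx1a-/- pool 2, 1 without double knock-out pool 3 and 2 without double knock-out pool 2 or panx1a-/- pool 1.

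Of 50 genes of glycolysis and gluconeogenesis 6 rose and 2 fell (median 0.07). GPI ENSDARG00000103826 (1.76, SE 0.18), ldhbb (0.72, SE 0.12), PFKM (0.68, SE 0.12) and fbp1a (0.68, SE 0.14) were among the higher ones, and HK2 (-0.76, SE 0.14) and SLC2A1 were the lower ones. Of 37 genes of oxidative stress and xenobiotic defence 5 rose and 2 fell, with HMOX1, gpx1a (0.89, SE 0.10), PRDX1 (0.56, SE 0.09) and gsta.1 (0.49, SE 0.09) higher and the transcription factor nfe2l2b (-1.19, SE 0.14) and gsta.2 (-0.80, SE 0.15) lower. In both lists the members did not move one way.

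Other tissues gave smaller or mixed counts, to be set beside 2.58% higher and 3.76% lower of all genes tested. Of 35 intestine genes 5 rose and 4 fell (median 0.02): apolipoproteins apoa4b.2 (0.68, SE 0.09) and apoa4b.1 (0.55, SE 0.09), the retinol-binding protein RBP2 ENSDARG00000093774 (0.78, SE 0.12) and a meprin copy, MEP1B ENSDARG00000037533 (0.66, SE 0.13), were higher, and AGR2 (-1.46, SE 0.17) and the mucin muc5.1 (-0.52, SE 0.10) of secretory cells, MELTF (-0.85, SE 0.11) and the copy MEP1B ENSDARG00000040683 (-0.41, SE 0.08) lower. The higher ones were 3 without double knock-out pool 3, and the lower ones 2 without pool 2. Of 46 fast muscle genes 3 fell (myhz1.1, CASQ1 ENSDARG00000038716 and TNNT3 ENSDARG00000030270) and 1, myhc4, rose (median -0.19), and of 31 slow and cardiac muscle genes myoglobin, mb, fell (-0.96, SE 0.14; median -0.25, 28 below 0). The level of myhz1.1 was 2440.4, 2234 and 3163 CPM in panx1a-/- and 1318, 1814 and 1495 CPM in the double knock-outs (-0.76, SE 0.16). Without double knock-out pool 3 or panx1a-/- pool 3 no fast muscle gene was lower, and without panx1a-/- pool 2 there were 5. By count both muscle lists were near or below the 6.34% of all genes tested, and the counts are read as no result. Of the 46 fast muscle genes 37 were below 0, beside 49.7% of all genes tested. The summed level of fast muscle genes was 66548 to 79634 CPM in panx1a-/- and 60755 to 66345 CPM in the double knock-outs. For slow and cardiac muscle it was 2462 to 2692 CPM against 2058 to 2288 CPM. The lines overlapped in neither sum. Of 33 skin genes 3 fell (lye, cldni and evpla, at -0.70, -0.68 and -0.52), a count of 0 without double knock-out pool 2 or pool 3 or panx1a-/- pool 1, 1 without panx1a-/- pool 2 and 7 without double knock-out pool 1. Of 35 ionocyte and kidney genes 5 fell, among them slc9a3.2 (-0.76, SE 0.14) and atp1a1a.5 (-0.75, SE 0.14), and ca15a rose (0.76, SE 0.13). The ionocyte count was 1 lower without double knock-out pool 3 and 3 without pool 2.

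In the exocrine pancreas 1 of 33 genes, the amylase gene amy2al1, rose (1.45, SE 0.17) and 0 fell, or 4 fell without double knock-out pool 1. In panx1b-/- against TL 14 of the same 33 were higher, and the interaction passed for 6 of them. In the endocrine pancreas insulin, ins, fell from 2.97, 2.27 and 2.95 CPM to 1.44, 1.03 and 1.16 CPM (-1.17, SE 0.23) and NEUROD1, which is also a retinal and neuronal gene, rose (0.79, SE 0.11), 2 of 13 islet genes. Of 84 skeletal and collagen genes 2 rose (col18a1b and col7a1) and 3 fell (col17a1b, COL12A1 ENSDARG00000078322 and col23a1a), shares near those of all genes tested. The lower count was 0 without double knock-out pool 2 or pool 3 and 1 without panx1a-/- pool 2 or pool 3. Of 32 pigment cell genes 2 rose (trpm1b and XDH) and 2 fell (pnp4a, -1.32, SE 0.15, and gch2, -0.88, SE 0.16). In myelin genes GPR37 ENSDARG00000033296 rose, 1 of 15. Of all genes tested 6.34% changed. The exocrine pancreas and myelin counts of this comparison were near or below that share and are read as no result about either list.

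Purinergic receptors and enzymes act on the ATP that pannexin channels release. Counted against 6.34% of all genes tested, their share and that of the connexins were near the background and are read as no result about either list. Of 40 purinergic genes 1 rose, the ATP-gated channel P2RX2 (0.67, SE 0.16), and 2 fell, the adenosine kinase copies ADK ENSDARG00000095947 (-0.48, SE 0.10) and ADK ENSDARG00000039429 (-0.43, SE 0.09). P2RX2 passed in none of the 6 fits with a library left out. Of 34 connexin genes 2 fell, gja13.1 (-0.78, SE 0.18) and gja12.1 (-0.63, SE 0.14), each in 2 of those 6 fits, and 0 rose. Of 36 genes of inflammasomes and cell death 2 rose, among them bada (0.51, SE 0.09), and 2 fell, mdm2 (-0.94, SE 0.20) and the PANX1 gene described above.

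In the large housekeeping lists there were 2 higher and 2 lower of 96 nuclear genes of oxidative phosphorylation (NDUFS6, atp5mj, COX5B ENSDARG00000068738 and COX4I1) and of 139 splicing genes (rbm42, SF3A1, LSM6 and SART3), 1 and 1 of 53 proteasome genes (PSME4 ENSDARG00000087911 and PSMD8) and of 92 replication and cell cycle genes (PCNA and RRM2B), and 2 higher of 111 genes of motile cilia (CFAP157 and DNAH3). The share of each of these lists was below the 6.34% of all genes tested and is read as no result about the list. Among replication and cell cycle genes 8 were lower without panx1a-/- pool 2. The 13 genes of the mitochondrial genome had 0 calls by edgeR, 0 by DESeq2 and 0 at an unadjusted p under 0.05. In light-induced DNA repair cry4 rose (0.71, SE 0.10), 1 of 8.

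**Figure D4:**
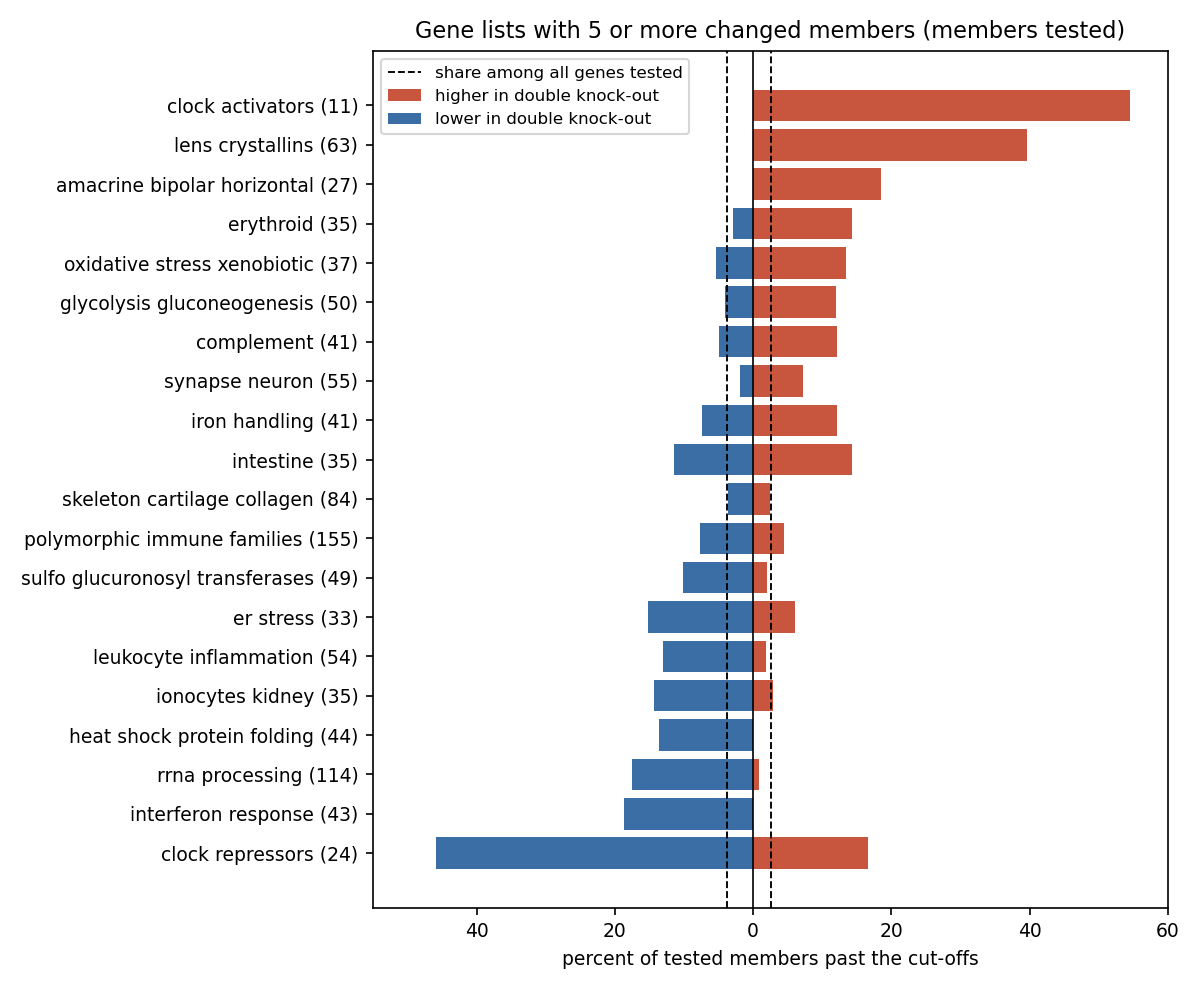
Percent of tested members past the cut-offs, for lists with 5 or more changed members, with the number tested in brackets. Bars to the right are higher and bars to the left lower in the double knock-out, and dashed lines mark the shares among all genes tested, 2.58% and 3.76%. Clock activators (6 of 11) and lens genes (25 of 63) reach furthest right and clock repressors (11 of 24 lower) furthest left. The iron, complement and sulfotransferase lists were drawn up after the results were seen.

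With panx1a present, panx1b loss changed other genes as well. In panx1b-/- against TL 696 genes were higher and 786 lower of 24860 tested (2.80% and 3.16%, together 5.96%), and 24261 genes were tested in both backgrounds. Of 924 genes lower in the panx1a-null background and tested in both, 160 were also lower there (17.3% of these and 20.9% of the 764 genes lower there) and 51 were higher. Of 634 genes that were higher, 67 were also higher there (10.6% of these and 9.91% of the 676 genes higher there) and 49 were lower. Over all 24261 genes the log2 fold changes had a Pearson r of 0.11, given as a description across genes, which are not independent.

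The panx1b effect differed between backgrounds for 1292 genes (5.33% of 24261 tested by interaction), more positive in the panx1a-null background for 622 (2.56%) and more negative for 670 (2.76%). Among the genes changed in the panx1a-null background it differed for 281 of 924 lower and 222 of 634 higher ones. Some moved in opposite directions: GSN ENSDARG00000045262 had log2 fold changes of -2.83 with panx1a absent and 2.65 with it present (interaction -5.47, adjusted p = 2.42e-09), cbln8 had 3.71 and -2.37 (6.10, adjusted p = 2.14e-07), and the myosin gene myhc4 had 0.88 and -3.81 (4.71). For others the interaction did not pass, which does not show that the 2 effects were equal. In the same order the values were -2.30 and -2.25 for hspb6, for RHCG -1.65 and -1.88, and for CCT4 -0.69 and -0.72.

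**Figure D5:**
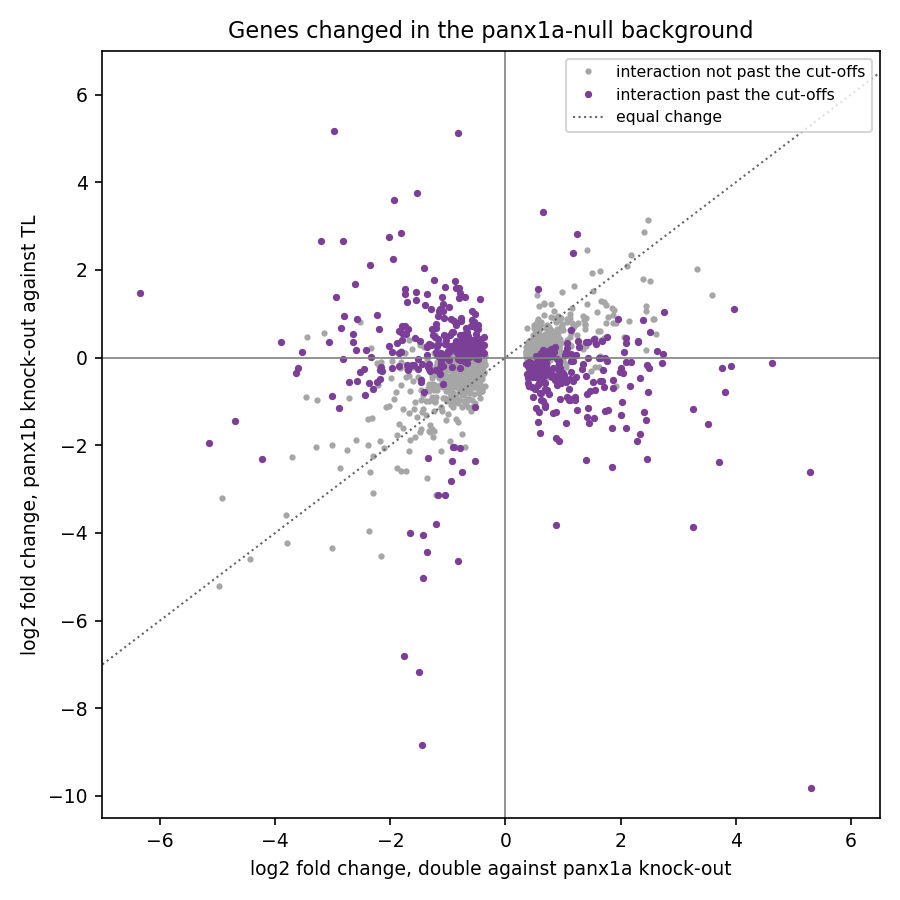
Genes changed in the panx1a-null background, with the log2 fold change of the double knock-out against panx1a-/- (horizontal) and of panx1b-/- against TL (vertical). Each point is 1 gene, purple where the interaction passed the cut-offs (281 lower and 222 higher genes), and the dotted line marks equal change. The gap around 0 on the horizontal axis comes from the choice of changed genes.

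Genes that neighbour panx1b in the RefSeq assembly GRCz12tu were set beside those around panx1a. Of 40 tested genes around panx1b, 20 on either side, 3 rose and 5 fell (20%), beside 6.34% of all genes tested. Around panx1a 1 rose and 1 fell of 40 (5.0%). The nearest tested gene on one side of panx1b was ins, and tmprss13b, 5 genes away on that side, fell too (-1.36). The others were il13ra2 and KPTN, higher, CHRNE, lower, and 3 genes known by clone names. In panx1b-/- against TL 5 of the 40 neighbours of panx1b passed, and 5 of the 40 of panx1a. These genes were named after their values were seen, and the part of sequence linked to the panx1b allele in these changes was not tested.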

How the data were processed

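RNA of whole zebrafish larvae at 6 dpf was sequenced from 3 independent pools per line, with a directional library kit. Per the labels and the submitters' processing notes, the authors used bcl2fastq 2.17, FastQC 0.11.2, Trim Galore 0.4.4, TopHat2 2.0.11 and HTSeq 0.6.1p2 with the danRer11 build, and deposited raw, whole-number read counts per gene for each library. The methods of the paper instead describe transcript counts from RSEM with bowtie2, tested with DESeq2. The deposited counts were taken as those of HTSeq. The strand setting of the counting and the treatment of reads shared by close copies are not given in the sources used here.

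Genes with at least 1 count in all 6 libraries were tested with edgeR's quasi-likelihood test (edgeR 4.0.16, limma 3.58.1, R 4.3.3) after TMM scaling, with Benjamini-Hochberg adjustment over all genes tested. A gene passed with an adjusted p under 0.05 and a p under 0.001. Standard errors were the log2 fold change over the root of its F statistic. The interaction was fitted on all 12 libraries. All adjusted p-values here come from these fits. They measure the spread between 3 pools per line, with double knock-out pools 2 and 3 closer to each other than the other pairs. With 3 against 3, an exact permutation test of a single value cannot go below 0.1. Intervals of count ratios cover counting error only. The scripts were tested on simulated data with 200 genes changed 2-fold. The main comparison called 89.5% of them and the interaction 58%, so the interaction misses more true differences. Unchanged genes were called too, 25 beside 179 changed ones in the main comparison and 12 beside 116 in the interaction. In both, the share of false calls was above the 0.05 of the adjusted p cut-off. Alternatives included DESeq2 1.42.0, other scalings and filters, and leaving out each library.

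The genes named are the pannexins, the 15 largest changes and the 10 smallest p-values in each direction, and up to 4 changed members per list and direction. A few genes that the rule picked are not reported here. The members and lists were chosen with earlier results of these data known. Gene names came from the reference tables, which held a symbol for 28223 of 31261 identifiers, and gene order for the neighbours of panx1a and panx1b came from the RefSeq assembly GRCz12tu. No sequence is printed, and no coordinates, since the counts were made on danRer11. Figures were drawn with matplotlib 3.10.9.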

Additional observations from a re-analysis of the deposited data

Results flagged for a closer look

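The panx1b effect was compared between the panx1a-null background and the background with panx1a by the interaction over all 12 libraries, with edgeR's quasi-likelihood test. It passed the cut-offs with a more positive value in the panx1a-null background for 622 genes and with a more negative value for 670. The values below are interaction log2 fold changes of the genes named here that passed, as the effect without panx1a minus that with it.

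Genes that fell without panx1a and rose with it, past the cut-offs in both, were GSN ENSDARG00000045262 (-5.47), B3GNT3 ENSDARG00000093521 (-4.45), cd74a (-3.44), hsp70l (-2.15), LSM6 (-2.10) and MELTF (-1.58). Genes that rose without panx1a and fell with it were cbln8 (6.10), nlrb5 (4.77), myhc4 (4.71), ftr12 (3.33), exosc3 (2.84), crygm2d16 (2.07) and ca15a (1.61).

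In both backgrounds past the cut-offs and one way, with the larger change where panx1a was absent, were pcdh1gb9 (-1.92), MSH4 (-1.73) and PER1 ENSDARG00000012499 (-0.64) among the lower genes and HBE1 ENSDARG00000115405 (1.71), MIOX (1.55), ITLN1 ENSDARG00000095082 (1.08) and nfil3-5 (0.51) among the higher ones. The change was larger with panx1a present for DHRS7C ENSDARG00000039453 (2.62), gsta.2 (1.28), cipca (1.16) and DNAH3 (-0.98).

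The rest passed the cut-offs only where panx1a was absent. Of those that were lower there, the difference was largest for mucms1 (-7.80), SPR ENSDARG00000058553 (-3.51), GGACT ENSDARG00000038248 (-3.42), adh5l (-3.36), HEPH (-3.19), RIBC1 (-3.18), btr20 (-2.83), serpinb14 (-2.78), PLEK2 (-2.76), sult3st5 (-2.45) and sult3st4 (-2.20). It was smaller for ccdc125 (-1.73), ftr51 (-1.58), ins (-1.47), mb (-1.47), ANO3 (-1.46), CASQ1 ENSDARG00000038716 (-1.23), muc5.1 (-1.18), PANX1 ENSDARG00000014910 (-1.15) and lye (-1.05), and smallest for tfr1b (-0.99), AGR2 (-0.94), cldni (-0.91), dnajc3a (-0.91), SART3 (-0.89), COX5B ENSDARG00000068738 (-0.87), ldlrb (-0.82), ADK ENSDARG00000039429 (-0.75), col17a1b (-0.75) and EPAS1 ENSDARG00000008697 (-0.71).

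Of those that were higher there, it was largest for mhc1zfa (3.67), amy2al1 (2.95), c3a.4 (2.82), a long intergenic non-coding RNA (2.65), c3a.6 (2.63), CFAP157 (2.25), HMOX1 (2.22), TFR2 (1.97), HBE1 ENSDARG00000087390 (1.92), gpx1a (1.52), SMCHD1 (1.42), crygmxl2 (1.39) and GPI ENSDARG00000103826 (1.301). It was smaller for RBP2 ENSDARG00000093774 (1.12), c3b.2 (1.09), sult3st3 (0.93), atp5mj (0.85), nr1d4b (0.77), PSME4 ENSDARG00000087911 (0.75), ern1 (0.60), PDIA3 (0.59) and SF3A1 (0.53).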

How the results depend on the processing

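With the adjusted p-value as the sole cut-off the counts were 1758 lower and 1382 higher genes, and 1173 more negative and 1076 more positive interactions. With a library left out, lower genes ran from 499 to 1029, higher genes from 381 to 943, negative interactions from 493 to 765 and positive ones from 488 to 703. The omission of panx1a-/- pool 2 and double knock-out pool 1 together, chosen after seeing the data, gave 1324 lower and 996 higher genes. The other counts stayed within 1.5 times: 1106 and 816 with DESeq2, 938 and 658 with its size factors, 988 and 549 with library size alone, 904 and 638 with filterByExpr, 823 and 556 at 10 counts or more, 1176 and 820 with no minimum, and 900 and 562 in a fit of all 12 libraries. Same-numbered pools did not deviate together (mean correlation -0.05), so the numbers were not used to pair them. A replicate block gave 838 lower and 555 higher genes, with interactions of 729 and 714. No gene picked by the naming rule changed direction under these alternatives. List medians near 0 did: over the alternatives they ran from -0.02 to 0.21 for phototransduction, -0.07 to 0.12 for complement, -0.07 to 0.08 for intestine, -0.09 to 0.04 for iron handling and -0.18 to 0.08 for ribosomal proteins. In all, 130 of 204 changed genes picked by the naming rule kept their call in all 6 fits with a library left out. P2RX2, ACACB and ugt5d1 kept it in none. The cause was not tested. Depth limits genes with few reads, such as mucms1 and he1.1.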
